A study of Mus musculus with 18 samples.

Results

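The comparison described here set E+F+ cells against unsorted cells, both kept in DMSO, in RNA sequencing of reaggregated embryoid bodies (EBs). E+F+ cells are day 3 EB cells, made from mouse GFP-Bry ES cells, that expressed the GFP knocked into the Brachyury locus and stained for both endoglin (E, gene Eng) and Flk-1 (F, gene Kdr). They were purified by FACS and reaggregated for 24 h with DMSO, the vehicle of the Wnt inhibitor IWR-1, before RNA was taken. Unsorted EB cells of the same line were reaggregated in the same way. Each group held 3 libraries, numbered Set 1, Set 2 and Set 3, so the comparison took 6 of the 18 libraries of the series and all 20321 rows of its table. The other 12 libraries were E+F− cells in DMSO and the same 3 populations (E+F+, E+F− and unsorted) in 10 µM IWR-1. By the study's account, the 3 libraries of each group came from independent samples. Same-numbered libraries were paired by giving Set a term in the fit, and outcomes without that term are given beside the results.

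The haemangioblast stage of the embryo, at which mesoderm of the primitive streak turns to blood and vessels, is modelled by this culture. Mesodermal cells first express Brachyury (gene T), then the VEGF receptor Flk-1, and a part of them then activates the transcription factors Tal1, Lmo2, Gata2 and Gata1 and forms primitive red cells of the yolk sac. Endoglin is a co-receptor for BMP and TGF-β ligands on this mesoderm and on endothelium. Unsorted reaggregates hold the E+F+ fraction among all others and did not go through the sort, so composition, handling and fewer cells of a type against less RNA per cell cannot be told apart in these bulk libraries.

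Summed expected counts were 21831637 to 26649631 in the 6 libraries, and no replicate pair was a duplicate. The first principal component held 60.58% of the variance and separated the groups. On it, the unsorted library of Set 1 lay at 70.22 and those of Sets 2 and 3 at 32.23 and 34.28, whereas the E+F+ libraries lay between −49.7 and −40.23. The unsorted libraries were thus more spread on this component than the E+F+ libraries. Among the unsorted libraries, that of Set 1 held the most T and Mesp1 RNA, and that of Set 3 the most globin RNA. Outcomes without one of these libraries are given beside the results they changed most.

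The surface markers of the sort were first examined at the RNA level, 1 day after sorting. Eng was at 4.41, 5.0 and 7.50 TPM after the sort (in the order of Sets 1, 2 and 3, as for all values that follow) and at 4.30, 1.92 and 8.87 TPM in unsorted cells. TPM is a gene's share of the transcripts of a library, scaled for transcript length. The groups overlapped, and the log2 difference of 0.36 ± 0.32 (SE, n = 3 libraries a group) did not pass the test (adjusted p = 0.46). Kdr was at 11.8, 13.4 and 7.69 TPM in E+F+ and at 65.2, 28.6 and 16.5 TPM in unsorted cells, so every E+F+ library was below every unsorted one. Kdr was lower by a log2 difference of −1.54 ± 0.41 (adjusted p = 0.018), a call that was lost without the Set term (adjusted p = 0.086) and without the E+F+ library of Set 1 (0.078) or Set 2 (0.064) or the unsorted library of Set 1 (0.11). Cells sorted for Flk-1 thus held no more Kdr RNA than unsorted cells in any Set 1 day later.

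To define the differences between the populations, all 13826 genes with enough counts were tested with edgeR, and those whose p, adjusted by Benjamini-Hochberg, lay under 0.05 were called. Between E+F+ and unsorted cells 2806 genes (20.3%) were called, of which 1367 (9.89% of those tested) were higher and 1439 (10.4%) were lower in E+F+ cells. Higher and lower genes differed in size, with a median log2 difference of 0.59 among the higher and −1.45 among the lower. A difference of at least 2-fold was reached by 345 higher and 943 lower genes. Within all 3 Sets, 2722 of the called genes (97.0%) differed in the same direction, against 7140 of all tested genes (51.6%). In 2462 of the called genes the 3 libraries of one group lay wholly above those of the other, as did 4445 of all tested genes (32.1%). The calls were made on these same libraries with a Set term, so neither comparison is separate support for them.

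Without the Set term 1459 genes were called, 650 higher and 809 lower, and each of them was among the 2806. Leaving out the unsorted library of Set 1 left 541 higher and 570 lower genes, and leaving out the E+F+ library of Set 1 left 737 and 745. Tested as log2(TPM + 1) with limma, 735 genes were higher and 1458 lower, so that 33.5% of calls were higher, against 48.7% in the main test.

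**Figure D1:**
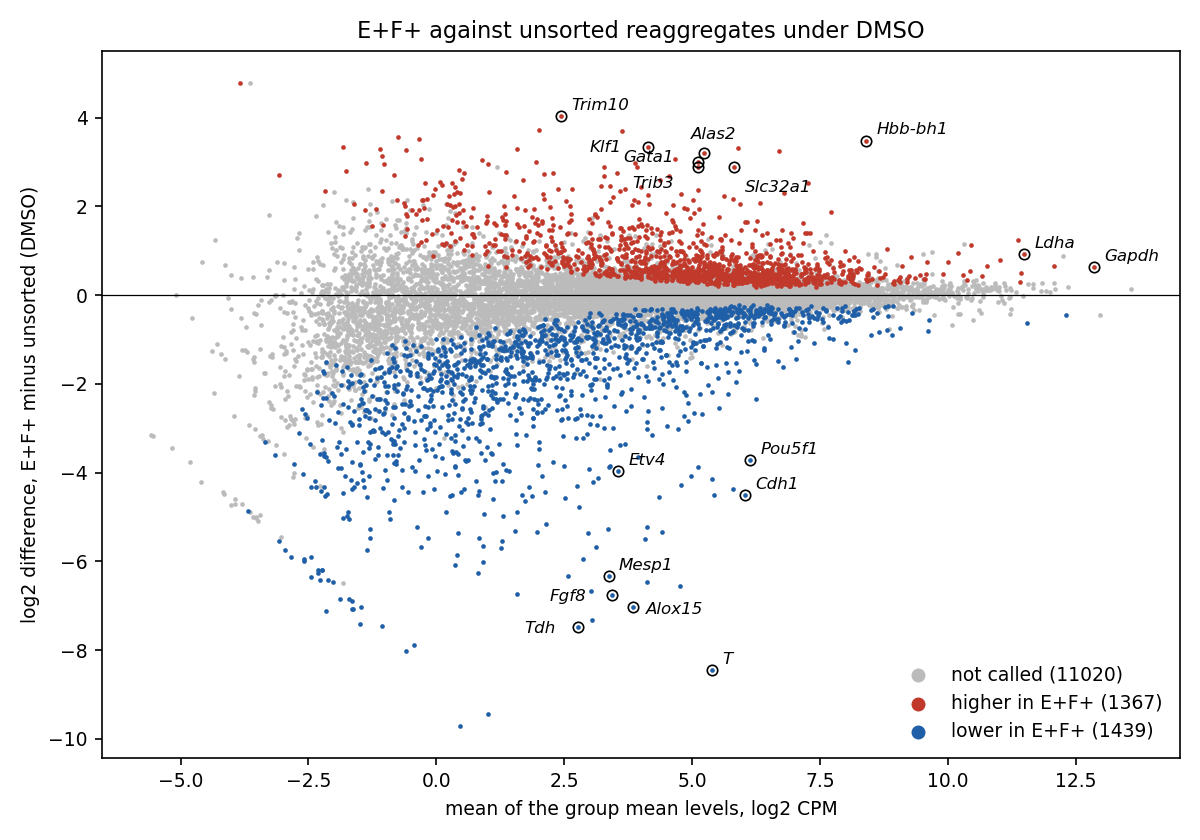
Each point is a tested gene with a count in these 6 libraries, with the mean level of the 2 groups (log2 CPM, read counts scaled to library size) on the x axis and the log2 difference, E+F+ minus unsorted, on the y axis; called genes are red (1367 higher) or blue (1439 lower). The lower genes reach much larger differences than the higher ones, with T at −8.46, whereas the labelled blood genes Gata1, Alas2, Klf1, Hbb-bh1 and Trim10 lie between 3.01 and 4.03.

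The transcription factors that direct blood formation formed the first group of higher genes. Of 24 tested, 15 were higher and 1 was lower in E+F+ cells, with a median log2 difference of 1.31 against 0.01 over all genes. Without the Set term 7 remained higher, and with any 1 of the 6 libraries left out 11 to 14 were higher. Gata1, the central regulator of red cell and megakaryocyte genes (GRCm38 chromosome X, 7959260 to 7978071), was at 41.7, 33.1 and 93.1 TPM in E+F+ and 3.37, 4.28 and 20.1 TPM in unsorted cells. The lowest E+F+ library exceeded the highest unsorted one, and both groups were highest in Set 3. Its log2 difference was 3.01 ± 0.35 (adjusted p = 0.00035). Gfi1b, a repressor needed for red cell maturation, was at 40.3, 29.7 and 65.5 TPM against 2.04, 4.60 and 15.6 TPM (3.07 ± 0.43, adjusted p = 0.00077). Both calls were kept under all 18 alternatives tried.

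Klf1, the erythroid Krüppel-like factor that activates globin and haem genes, was at 34.5, 17.6 and 55.0 TPM in E+F+ and 0.76, 2.12 and 14.2 TPM in unsorted cells. The groups did not overlap, and the within-Set gap was widest in Set 1 and narrowest in Set 3. The log2 difference was 3.33 ± 0.48 (adjusted p = 0.00085), and without the Set term the adjusted p was 0.09. Lmo2, the bridging protein that joins Tal1 to Gata factors, was at 37.6, 33.6 and 58.2 TPM against 14.6, 10.98 and 25.7 TPM (1.44 ± 0.24, adjusted p = 0.0019). Spi1, the myeloid regulator PU.1, was low but higher in every E+F+ library, at 0.98, 1.36 and 3.49 TPM against 0.28, 0.34 and 0.52 TPM (2.32 ± 0.33, adjusted p = 0.00085). The calls of Lmo2 and Spi1 held under all 18 alternatives.

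Tal1 (Scl), required for every blood lineage, was at 46.4, 38.2 and 93.8 TPM in E+F+ and 9.85, 9.82 and 28.7 TPM in unsorted cells (log2 difference 2.05 ± 0.50, adjusted p = 0.012). Gata2, a factor of early progenitors, was at 32.1, 31.9 and 58.4 TPM against 15.1, 12.4 and 28.8 TPM (1.24 ± 0.29, adjusted p = 0.0097). Neither gene overlapped between the groups. The Tal1 call was lost without the E+F+ library of Set 3 (adjusted p = 0.053) or the unsorted library of Set 1 (0.06) or Set 2 (0.057), and that of Gata2 without the E+F+ library of Set 3 or the unsorted library of Set 2 (0.052 in both). Runx1, the factor of definitive blood stem cells, did not pass, at 9.07, 9.39 and 14.1 TPM against 6.72, 6.35 and 12.6 TPM (adjusted p = 0.091). The 1 lower factor, Bcl11a, a silencer of embryonic globin genes, was at or under 0.17 TPM in E+F+ cells and at 2.20, 0.29 and 0.15 TPM in unsorted cells. Its call was lost when any 1 of the E+F+ libraries or the unsorted library of Set 1 was left out.

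**Figure D2:**
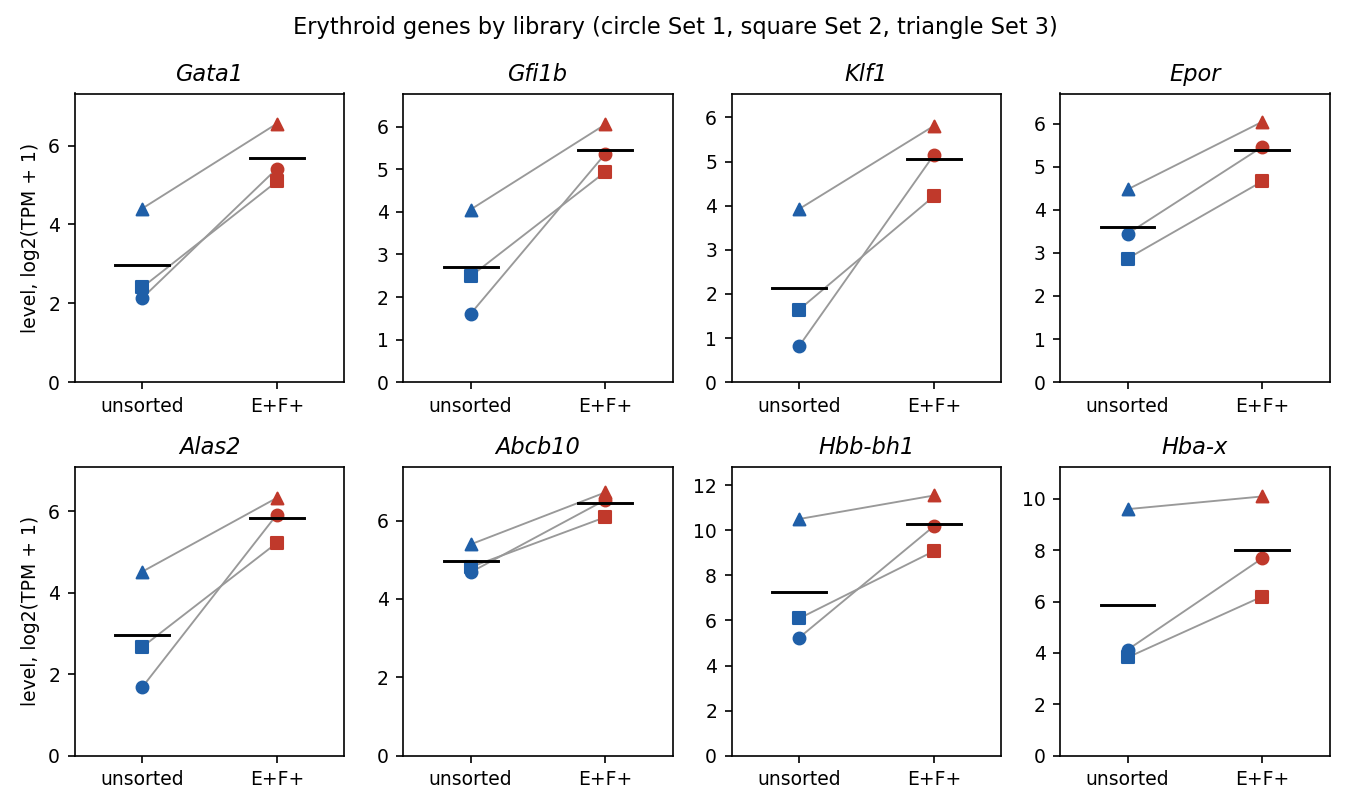
Levels of 8 erythroid genes, as log2(TPM + 1), in the 3 unsorted (blue) and 3 E+F+ (red) libraries; symbols mark the Set, lines join libraries of a Set and black bars are group means. Gata1, Gfi1b, Klf1, Epor, Alas2 and Abcb10 do not overlap between the groups, whereas the unsorted library of Set 3 holds more Hbb-bh1 and Hba-x RNA than the E+F+ libraries of Sets 1 and 2.

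Red cell genes are known for promoters that hold letters recognised by Gata1 and by Klf1. The 250 bases before the RefSeq start of 3 of the higher genes, and of the Wnt feedback gene Axin2, which was lower, are shown for this reason (RefSeq, GRCm38.p6, 5′ to 3′ on the strand of the gene). For the blood genes, capitals mark the GATA letters, AGATAA as well as TGATAA, and the KLF letters, CCNCNCCC, on either strand. In Axin2, the TCF/LEF letters were searched on either strand, CTTTGAT as well as CTTTGAA. KLF matches can overlap each other. Alas2 (chrX:150547167-150547416, plus strand), Klf1 (chr8:84901732-84901981, plus strand), Epor (chr9:21963577-21963826, minus strand) and Axin2 (chr11:108920099-108920348, plus strand) read as follows.
Alas2: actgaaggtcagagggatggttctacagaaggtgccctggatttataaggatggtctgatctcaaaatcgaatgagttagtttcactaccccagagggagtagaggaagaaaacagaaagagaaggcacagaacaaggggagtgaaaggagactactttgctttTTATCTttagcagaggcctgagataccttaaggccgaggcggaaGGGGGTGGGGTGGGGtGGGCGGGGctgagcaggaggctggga
Klf1: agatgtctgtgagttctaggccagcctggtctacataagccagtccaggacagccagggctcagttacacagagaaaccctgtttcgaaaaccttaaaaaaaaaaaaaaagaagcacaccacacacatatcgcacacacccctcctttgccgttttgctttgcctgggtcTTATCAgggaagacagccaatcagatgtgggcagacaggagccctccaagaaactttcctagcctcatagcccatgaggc
Epor: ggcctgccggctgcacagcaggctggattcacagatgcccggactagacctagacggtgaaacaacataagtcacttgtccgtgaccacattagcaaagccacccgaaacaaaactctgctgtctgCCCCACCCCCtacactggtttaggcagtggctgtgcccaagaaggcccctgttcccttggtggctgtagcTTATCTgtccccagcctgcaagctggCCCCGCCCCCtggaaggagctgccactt
Axin2: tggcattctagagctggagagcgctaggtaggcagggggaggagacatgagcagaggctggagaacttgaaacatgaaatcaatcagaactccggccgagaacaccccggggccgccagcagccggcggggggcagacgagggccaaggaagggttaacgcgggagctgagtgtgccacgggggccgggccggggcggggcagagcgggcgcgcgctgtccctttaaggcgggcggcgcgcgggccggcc

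A GATA match begins 86 bases before the start of Alas2, 80 before that of Klf1 and 54 before that of Epor, and the Alas2 and Epor windows hold 4 KLF matches each. The Axin2 window holds no TCF/LEF match. Over windows of 300 bases (250 before to 50 after the start), a GATA match was present in 15 of 35 promoters (42.9%) of the tested globin, haem and red cell genes, 26 of 40 of which had a promoter in the table. It was present in 10.3% of the 13307 promoters of all tested genes, in 10.6% of promoters of the called higher genes and in 8.59% of those of the called lower genes. The KLF match was common everywhere, in 68.9% of promoters of all tested genes and 71.7% and 73.0% of those of higher and lower genes. The TCF/LEF match was present in 5.84% of promoters of all tested genes and in 4 of 20 promoters of the tested canonical Wnt genes. These shares are descriptions, and a match is not a bound site.

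The globin and haem synthesis genes followed, 15 of 18 tested being higher and none lower, with a median log2 difference of 1.196. Without the Set term 8 were higher, and leaving out 1 library left 9 to 15, the fewest without the unsorted library of Set 1. Haem is made in enzymatic steps that begin and end in the mitochondrion, and 6 of the 7 enzymes described here were higher. Alas2, the red cell form of the first and rate-limiting enzyme, was at 59.8, 36.5 and 79.7 TPM in E+F+ and 2.20, 5.35 and 21.9 TPM in unsorted cells (3.20 ± 0.52, adjusted p = 0.0016; 0.077 without the Set term). Alad, which follows it, was at 53.7, 51.2 and 87.2 TPM against 72.5, 63.7 and 73.8 TPM, groups that overlapped, with a difference of −0.07 ± 0.19 that did not pass (adjusted p = 0.84). Alas2 stood apart in size, since the other higher enzymes, Uros, Urod, Cpox, Ppox and Fech in pathway order, differed by 0.41 to 1.24.

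Cpox and Ppox, which act late in the pathway, had the smallest p-values among them (1.24 ± 0.17, adjusted p = 0.00068, and 0.99 ± 0.13, adjusted p = 0.00048). Ppox was at 38.6, 25.9 and 34.7 TPM in E+F+ and 20.2, 13.1 and 20.7 TPM in unsorted cells, without overlap. The number of enzymes called was 4 without the Set term and 4 to 6 with 1 library left out: Uros and Urod lost their calls without the E+F+ or the unsorted library of Set 1 or Set 3, and 4 enzymes were then called. Abcb10, a mitochondrial transporter needed for haem synthesis, was at 91.3, 67.0 and 104 TPM against 24.6, 27.1 and 41.0 TPM (1.62 ± 0.17, adjusted p = 0.00035), and held under all alternatives.

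Of the 3 embryonic globins described, 2 were called higher, and all 3 were highest in Set 3 of both groups. Hbb-bh1, an embryonic β-like globin, was at 1159, 537.9 and 2981 TPM in E+F+ cells and 36.5, 66.9 and 1445 TPM in unsorted cells. Within each Set the E+F+ library was higher, but the unsorted library of Set 3 exceeded the E+F+ libraries of Sets 1 and 2, so the groups overlapped. The log2 difference was 3.48 ± 0.75 (adjusted p = 0.007), and the call rested on the Set term, without which the adjusted p was 0.56. Hba-x, the embryonic α-like globin, stood at 205 and 72.3 TPM in E+F+ cells of Sets 1 and 2 against 16.4 and 13.2 TPM, and at 1091 against 774 TPM in Set 3. Its difference of 2.54 ± 0.68 (adjusted p = 0.019; 0.81 without the Set term) was not called without the E+F+ library of Set 1 (0.12) or the unsorted library of Set 1 (0.094) or Set 2 (0.071). Hbb-y, another embryonic β-like globin, did not pass, at 3.99, 2.22 and 16.8 TPM against 0.26, 0.97 and 16.1 TPM (1.399 ± 0.66, adjusted p = 0.15). The near-identical Hba-a1 and Hba-a2 share reads, so their values are uncertain and are not given.

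Among genes of the red cell membrane, its receptors and its iron supply, 10 of 22 were higher and 1 was lower. Without the Set term 3 were higher and 0 lower, and without the E+F+ library or the unsorted library of Set 1 (5 each), or the E+F+ library of Set 2 (6), the count fell. Epor, the erythropoietin receptor, was at 43.0, 24.3 and 64.9 TPM in E+F+ and 9.87, 6.30 and 21.2 TPM in unsorted cells, and no library of one group reached into the other. Its log2 difference of 1.98 ± 0.25 (adjusted p = 0.00041) held under all alternatives. Trim10, a ubiquitin ligase of maturing red cells, was at 8.26, 3.73 and 11.7 TPM against 0.15, 0.27 and 1.73 TPM (4.03 ± 0.60, adjusted p = 0.00097). The transferrin receptor Tfrc did not differ by its test, at 82.6, 65.3 and 67.2 TPM against 77.7, 76.9 and 71.9 TPM (0.01 ± 0.15, adjusted p = 0.97), and its sign depended on the setting.

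Of 11 early blood and megakaryocyte surface genes 1 (9.1%) was called higher, near the share of all genes (9.89%). It was Itga2b (CD41), an early surface marker of committed blood cells, at 19.8, 17 and 34.2 TPM against 4.97, 4.53 and 16.8 TPM (1.73 ± 0.23, adjusted p = 0.00053; 0.10 without the Set term). Kit, the stem cell factor receptor, was at 6.30, 3.67 and 6.21 TPM against 4.60, 2.78 and 7.90 TPM (adjusted p = 0.56). Of 28 endothelial genes 4 (14.3%) were higher and 4 (14.3%) lower, near the shares of all genes (9.89% and 10.4%). These counts were 1 and 2 without the Set term, 2 and 1 without the unsorted library of Set 1, and 2 and 2 without the E+F+ library of Set 1 or Set 2. Acvrl1, a TGF-β type I receptor of vessels that pairs with endoglin, was higher (2.15 ± 0.40, adjusted p = 0.0033; 0.07 without the Set term), as were Egfl7, Pecam1 and Flt1. Nrp2, a VEGF and semaphorin co-receptor, was lower, at 5.15, 3.38 and 3.85 TPM against 19.6, 10.3 and 29.9 TPM (−2.03 ± 0.28, adjusted p = 0.00077), as were Kdr, Etv2 and Sox17. Etv2, the factor that opens the blood and endothelial programme, was at 2.48, 2.68 and 2.32 TPM in E+F+ and 40.5, 7.48 and 5.71 TPM in unsorted cells (−2.56 ± 0.67, adjusted p = 0.017). Its call was lost without the Set term (adjusted p = 0.0697) and without the E+F+ library of Set 1 or Set 2 or the unsorted library of Set 1, and those of Pecam1 and Flt1 were lost without the Set term (0.41 and 0.059) and without the E+F+ or unsorted library of Set 1 or Set 2. The Sox17 call was lost without the unsorted library of Set 1 (0.09). Cdh5 (VE-cadherin), the defining junction protein of endothelium, did not pass (adjusted p = 0.32).

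Jdp2 and Epas1, candidate genes of the study, were both higher in E+F+ cells. Jdp2, a repressor of the AP-1 family (GRCm38 chromosome 12, 85599027 to 85639878), was at 58.7, 56.8 and 45.7 TPM against 10.8, 24.3 and 33.1 TPM. The groups did not overlap, and the gap within a Set was widest in Set 1 and narrowest in Set 3. The log2 difference of 1.47 ± 0.39 (adjusted p = 0.018) was not called without the Set term (0.10), the E+F+ library of Set 1 (0.097) or the unsorted library of Set 1 (0.10) or Set 2 (0.076). Epas1, the oxygen-regulated factor HIF-2α, was at 18.9, 16.5 and 20.7 TPM against 3.79, 10.3 and 13.1 TPM (1.30 ± 0.33, adjusted p = 0.015). It was not called without the Set term (0.22), the E+F+ library of Set 1 (0.08) or the unsorted library of Set 1 (0.09) or Set 3 (0.052). Of the 12 AP-1 genes tested, 1 (8.3%), Jdp2, was called higher, against 9.89% of all genes. Jun and Junb (16.7%) were lower, against 10.4% of all genes, and none of these 3 was called without the Set term.

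The genes of the primitive streak were low in E+F+ cells. Of 14 tested, 12 were lower and none was higher, with a median log2 difference of −4.53, and 11 were lower without the Set term and 8 to 12 with 1 library left out. T (Brachyury), which drives mesoderm formation and whose locus carries the GFP used in the sort (GRCm38 chromosome 17, 8434423 to 8442496), was at 0.17, 0.14 and 0.21 TPM in E+F+ and 159, 21.2 and 56.9 TPM in unsorted cells. The groups lay far apart, although the E+F+ cells had carried GFP from this locus 1 day before. The log2 difference was −8.46 ± 0.96 (adjusted p = 0.00035). Mesp1, the regulator of early cardiac mesoderm, was at 0.14, 0.33 and 0.34 TPM against 76.8, 7.47 and 10.1 TPM (−6.33 ± 1.02, adjusted p = 0.0015). Evx1, a homeobox gene of the posterior streak, was at 0.54, 1.33 and 0.85 TPM against 52.7, 10.4 and 15.9 TPM (−4.55 ± 0.63, adjusted p = 0.00077). These 3 calls held under all alternatives, and in each gene the unsorted library of Set 1 was the highest.

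Derivatives of the streak were lower too, though fewer passed. Of 14 paraxial and presomitic mesoderm genes 5 were lower, with 3 without the Set term, 2 without the E+F+ library of Set 1 or Set 2 or the unsorted library of Set 1, and 3 without the E+F+ or unsorted library of Set 3. Msgn1, a presomitic factor, had no count in any E+F+ library and 284 counts over the unsorted ones (29.6, 2.93 and 11.03 TPM), which against a floor of 3 counts over the E+F+ group was at least 99.2-fold lower. Cyp26a1, the enzyme that degrades retinoic acid in the posterior embryo, was at 1.68, 3.84 and 3.06 TPM against 142, 32.5 and 21.8 TPM, a log2 difference of −4.09 ± 0.77 (adjusted p = 0.0034). Mesp2, a partner of Mesp1 in somite formation, did not pass at 0.11, 0.22 and 0.04 TPM against 1.73, 0.34 and 0.83 TPM (adjusted p = 0.053).

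**Figure D3:**
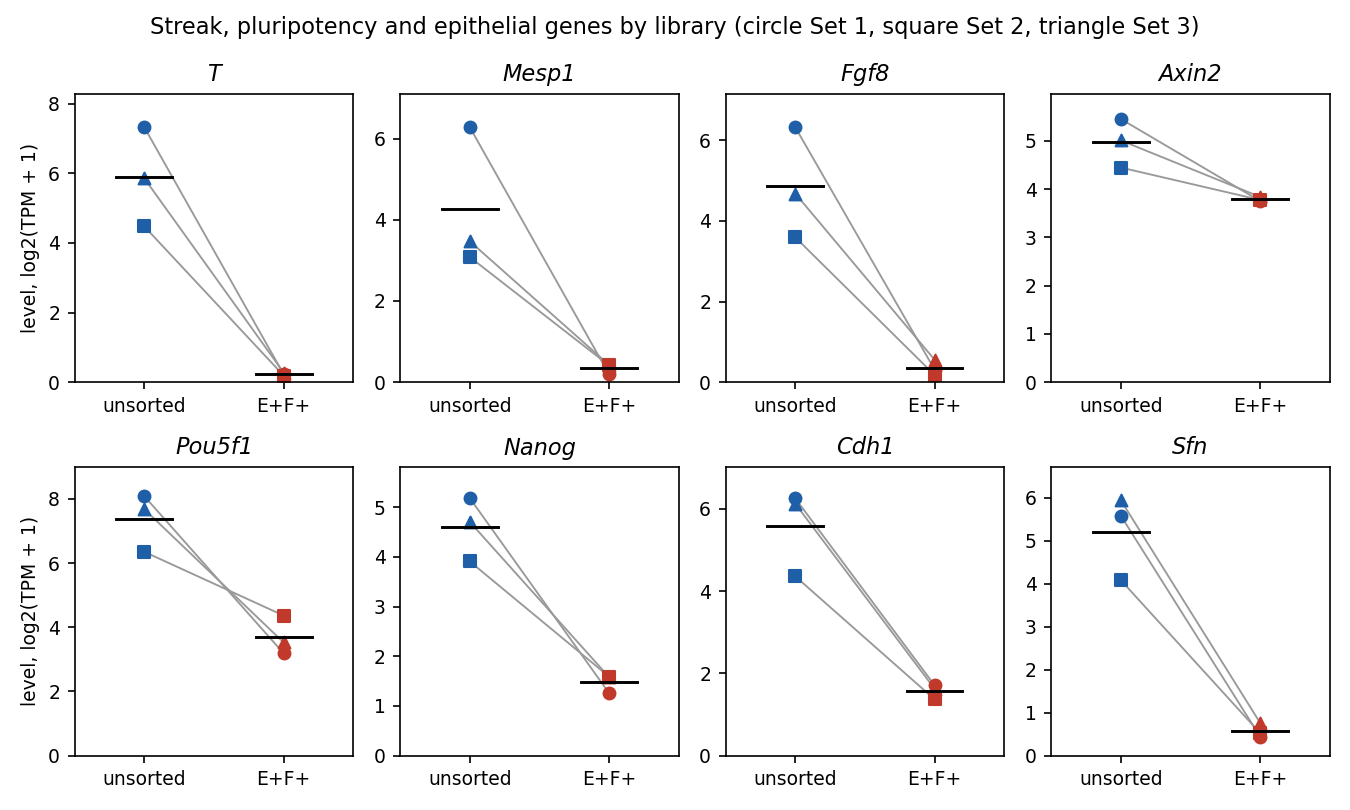
Levels of 8 genes that were lower in E+F+ cells, as log2(TPM + 1), drawn as for the erythroid genes. T, Mesp1, Fgf8 and Sfn lie near 0 in all 3 E+F+ libraries, below unsorted levels that vary between Sets, whereas Axin2 has an even level in E+F+ cells (12.5 to 13.3 TPM).

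Signalling genes known from the streak were lower too. Some of these genes, among them T, Wnt3 and Fgf8, had already been counted in the streak list. Among 20 feedback and target genes of canonical Wnt signalling, 12 were lower and none was higher (median log2 difference −1.12), and 10 were lower without the Set term and 10 to 13 with 1 library left out. Axin2, a scaffold of the β-catenin destruction complex and a general reporter of Wnt activity, was at 12.5, 12.7 and 13.3 TPM in E+F+ and 42.8, 20.8 and 31.2 TPM in unsorted cells (−1.16 ± 0.22, adjusted p = 0.0036). Its E+F+ level was even, while the unsorted level varied. Ccnd1, the G1 cyclin D1, was at 20.04, 35.5 and 21.8 TPM in E+F+ cells and at an even 78.9, 83.4 and 83.1 TPM in unsorted cells (−1.61 ± 0.14, adjusted p = 0.00013). Cdx1, a homeobox target of Wnt, had no E+F+ count and 94 over the unsorted libraries, at least 32.8-fold lower. Of 26 Wnt ligands, receptors and secreted inhibitors 11 (42.3%) were lower, against 10.4% of all genes. A further 2 (7.7%) were higher, near the share of all genes (9.89%). Wnt6 and Wnt5b were each lower by a log2 difference of −3.21 (adjusted p = 0.0008 and 0.0015), and Wnt2, a ligand of early vascular mesoderm, was higher, at 11.04, 8.65 and 9.71 TPM against 3.50, 5.20 and 4.59 TPM (1.26 ± 0.25, adjusted p = 0.0044). The count of lower genes fell to 7 without the Set term, to 6 without the E+F+ library of Set 1 and to 5 without the unsorted library of Set 1.

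In FGF signalling, 12 of 19 genes (63.2%) were lower and 1 (5.3%) was higher, against 10.4% and 9.89% of all genes. The lower genes numbered 10 without the Set term and 8 to 11 with 1 library left out. Fgf8, the ligand that moves cells through the streak, was at 0.24, 0.13 and 0.47 TPM against 78.9, 11.1 and 24.6 TPM (−6.75 ± 1.15, adjusted p = 0.002). Etv4, an ETS factor induced by FGF, was at 1.06, 1.03 and 0.93 TPM against 28.7, 11.2 and 14.1 TPM (−3.96 ± 0.35, adjusted p = 0.00013), and the feedback inhibitors Spry4 (−4.29 ± 0.61) and Dusp6 (−2.19 ± 0.44) were lower too. All 4 calls held under all alternatives. Fgfr3, a receptor, was the 1 higher gene, and its call was lost without the Set term (adjusted p = 0.12) and without the E+F+ library of Set 1 or Set 2 or the unsorted library of Set 1.

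No BMP, Notch or retinoic acid gene was called higher. Of 24 BMP pathway genes 5 (20.8%) were lower, against 10.4% of all genes. Id1, a direct BMP target that blocks bHLH factors, was at 94.2, 119 and 93.2 TPM against 443, 216 and 292 TPM (−1.49 ± 0.24, adjusted p = 0.0016), a call kept under all alternatives. Id3 was lower by −0.60 ± 0.19 (adjusted p = 0.038; 0.17 without the Set term), a call lost without any 1 of 5 libraries, while Id2 (adjusted p = 0.24), Smad1, the BMP signal transducer (0.11), and Bmp4, the ligand (0.80), did not pass. The BMP count was 2 without the Set term or the E+F+ library of Set 1 or Set 2, and 1 without the unsorted library of Set 1. Of 16 Notch genes 5 (31.2%) were lower (2 without the Set term or the unsorted library of Set 1, and 3 without any 1 of the E+F+ libraries or the unsorted library of Set 3), among them Hes1, a Notch effector (−1.18 ± 0.19, adjusted p = 0.0013; 0.064 without the Set term). Of 13 retinoic acid genes 6 (46.2%) were lower (3 without the Set term, any 1 of the E+F+ libraries or the unsorted library of Set 1), including the retinoic acid binding protein Crabp2 (−1.54 ± 0.21, adjusted p = 0.00077). The lower genes Dll1, of the Notch list, and Cyp26a1, of the retinoic acid list, were also counted in the paraxial list.

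Most pluripotency genes were lower in E+F+ than in unsorted cells. Of 25 tested, 20 were lower and none was higher (median log2 difference −3.15), with 14 lower without the Set term and 12 without the E+F+ or the unsorted library of Set 1. Pou5f1 (Oct4), the core pluripotency factor, was at 8.11, 19.6 and 10.5 TPM in E+F+ and 270.5, 80.7 and 204 TPM in unsorted cells (−3.72 ± 0.73, adjusted p = 0.0041). Nanog, its partner, was at 1.39, 2.01 and 1.99 TPM against 35.4, 14.02 and 25.1 TPM (−3.64 ± 0.69, adjusted p = 0.0034). The unsorted library of Set 2 was the lowest of its group for both genes, and still above every E+F+ library. Esrrb, a nuclear receptor of naive ES cells, was at or under 0.04 TPM in E+F+ cells against 1.78, 0.45 and 2.57 TPM (−5.46 ± 0.55, adjusted p = 0.00026). Pou5f1, Nanog and Esrrb held under all alternatives. Sox2 was lower as well (−2.13 ± 0.66, adjusted p = 0.036; 0.075 without the Set term), but not without either of 2 E+F+ libraries (Sets 1 and 3) or 2 unsorted libraries (Sets 1 and 2). Klf4, another pluripotency factor, did not pass (adjusted p = 0.28).

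Germ cell genes overlap this list in function, and 7 of 9 were lower (4 without the Set term; 3, 2 and 2 without the E+F+ libraries of Sets 1 and 3 and the unsorted library of Set 1). Dppa3 (Stella), a maternal and germ cell protein, was at 0, 0 and 0.26 TPM against 4.50, 1.27 and 12.6 TPM (−6.07 ± 0.89, adjusted p = 0.0009). Several genes of endoderm and epithelium were lower too. Of 14 definitive endoderm genes 7 (50%) were lower and 1 (7.1%) higher, against 10.4% and 9.89% of all genes. The other 6, keratin genes among them, did not pass. Without the Set term 6 were lower and 0 higher. The 1 higher gene was also counted among the blood transcription factors, and the lower gene Sox17 in the endothelial list. Cdh1 (E-cadherin), the junction protein that is lost when cells leave the epiblast, was at 2.27, 1.58 and 2.08 TPM against 75.1, 19.5 and 68.5 TPM (−4.51 ± 0.57, adjusted p = 0.00043). Cldn6, a tight junction protein, was lower as well (−4.28 ± 0.59, adjusted p = 0.00077), as was Trh, the thyrotropin-releasing hormone gene (−5.68 ± 0.67, adjusted p = 0.00035). Cdh1, Cldn6 and Trh held under all alternatives. Foxa2, which specifies endoderm, did not pass in the main test (adjusted p = 0.091).

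Of 16 visceral endoderm genes 4 (25%) were lower and 1 higher, including Apoe, a lipoprotein of yolk sac endoderm, at 221, 285 and 161 TPM against 784, 526 and 389 TPM (−1.23 ± 0.19, adjusted p = 0.0012). Of 9 neuroectoderm genes 4 (44.4%) were lower, as were 4 of 9 surface ectoderm and trophoblast genes (44.4%), against 10.4% of all genes. The lower genes of these 3 lists numbered 3, 3 and 2 without the Set term. They numbered 2 to 4 (visceral endoderm), 2 to 5 (neuroectoderm) and 1 to 3 (surface ectoderm and trophoblast) with 1 library left out, and each list was at its lowest count without the unsorted library of Set 1, among others. The lower neuroectoderm gene Sox2 was also counted in the pluripotency list. Of the lower trophoblast genes, Eomes was also counted in the streak list and Tfap2c in the germ cell list. The epithelial-mesenchymal transition list held 2 higher (9.5%, against 9.89% of all genes) and 4 lower (19%) of 21 (0 and 2 without the Set term). Snai2 (Slug), a repressor of E-cadherin, was higher, at 77.7, 63.4 and 63.6 TPM against 5.93, 19.1 and 29.5 TPM (2.23 ± 0.59, adjusted p = 0.018). The Snai2 groups were far apart, yet the call was lost without the Set term (0.081), the E+F+ library of Set 1 (0.075) or Set 2 (0.057) or the unsorted library of Set 1 (0.098).

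Of 16 cardiac transcription factors 4 (25%) were lower and 1 (6.2%) was higher, and of 14 contractile and hormone genes 2 (14.3%) were lower. Over all genes 10.4% were lower and 9.89% higher, so the contractile share was near that of all genes. Among the lower factors, Mesp1 was also counted in the streak list and Tbx3 in the pluripotency list. The 4 lower factors became 2 without the Set term, the E+F+ library of Set 1 or Set 2 or the unsorted library of Set 1. Isl1, a factor of cardiac progenitors, was at 0.29, 0.45 and 0.50 TPM against 1.97, 1.34 and 2.75 TPM (−2.14 ± 0.48, adjusted p = 0.0082). Gata4, a cardiac and endodermal factor, was at 22.9, 26.1 and 19.7 TPM against 128, 56.4 and 25.4 TPM. Its groups overlapped, and its difference (−1.23 ± 0.37, adjusted p = 0.032) was lost without the Set term (0.13), without the E+F+ library of Set 1 (0.155) or Set 2 (0.121) and without the unsorted library of Set 1 (0.19). Mef2c was called higher at levels of 0.34 to 0.89 TPM against 0.15 to 0.36 TPM (1.53 ± 0.34, adjusted p = 0.0084), but not without the unsorted library of Set 1 (0.052). Actc1, cardiac actin, was lower, at 0.74, 1.21 and 1.35 TPM against 6.64, 4.70 and 8.94 TPM (−2.55 ± 0.36, adjusted p = 0.0008). Nkx2-5, Tbx5, Hand2 and Tnni3 did not pass (adjusted p of 0.26, 0.078, 0.94 and 0.23).

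Hand1, a factor of lateral and extraembryonic mesoderm, was at 846, 968 and 794 TPM in E+F+ and 357, 658 and 502 TPM in unsorted cells. Every E+F+ library exceeded every unsorted one, but the difference of 0.93 ± 0.58 did not pass (adjusted p = 0.28). Of 18 lateral plate and extraembryonic mesoderm genes 1 (5.6%) was higher and 5 (27.8%) were lower, against 9.89% and 10.4% of all genes. The count of lower genes was 1 without the Set term or the E+F+ library of Set 2 or Set 3, and 2 without the unsorted library of Set 1. Of 31 Hox genes 6 (19.4%) were lower and 1 (3.2%) was higher, against the same 10.4% and 9.89% of all genes. None of the Hox genes was called without the Set term or the E+F+ library of Set 3. With the unsorted library of Set 1, 2 or 3 left out, 3, 4 or 2 were lower. The lower genes Hoxa7, Hoxa9, Hoxa10 and Hoxa11 were at most 3.44 TPM in any of these libraries and were highest in the unsorted library of Set 3.

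Metabolic genes formed the second group that was higher in E+F+ cells. Of 30 hypoxia response and glycolysis genes 18 were higher and none was lower, with a median log2 difference of 0.94. Without the Set term 8 were higher, and the count was 10 without either the E+F+ or the unsorted library of Set 2 and 8 without the unsorted library of Set 3. All 14 glycolysis enzymes examined, from hexokinase to lactate dehydrogenase, had positive differences under each of the settings for which counts of the enzymes were made, and 11 passed (7 without the Set term, 5 to 9 with 1 library left out, 5 as log2(TPM + 1) and 1 without Set 2). Gapdh was at 12557, 9923 and 11491 TPM in E+F+ and 8346, 7547 and 7464 TPM in unsorted cells, without overlap (0.63 ± 0.12, adjusted p = 0.0031). Ldha, which turns pyruvate to lactate, was at 4360.2, 3972 and 4283 TPM against 3099.9, 2105 and 2012 TPM (0.93 ± 0.18, adjusted p = 0.0038). Higd1a, a mitochondrial protein induced by low oxygen, was at 159, 117 and 133 TPM against 101, 72.4 and 77.0 TPM (0.81 ± 0.11, adjusted p = 0.00077). The calls of Gapdh and Higd1a held under all alternatives.

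**Figure D4:**
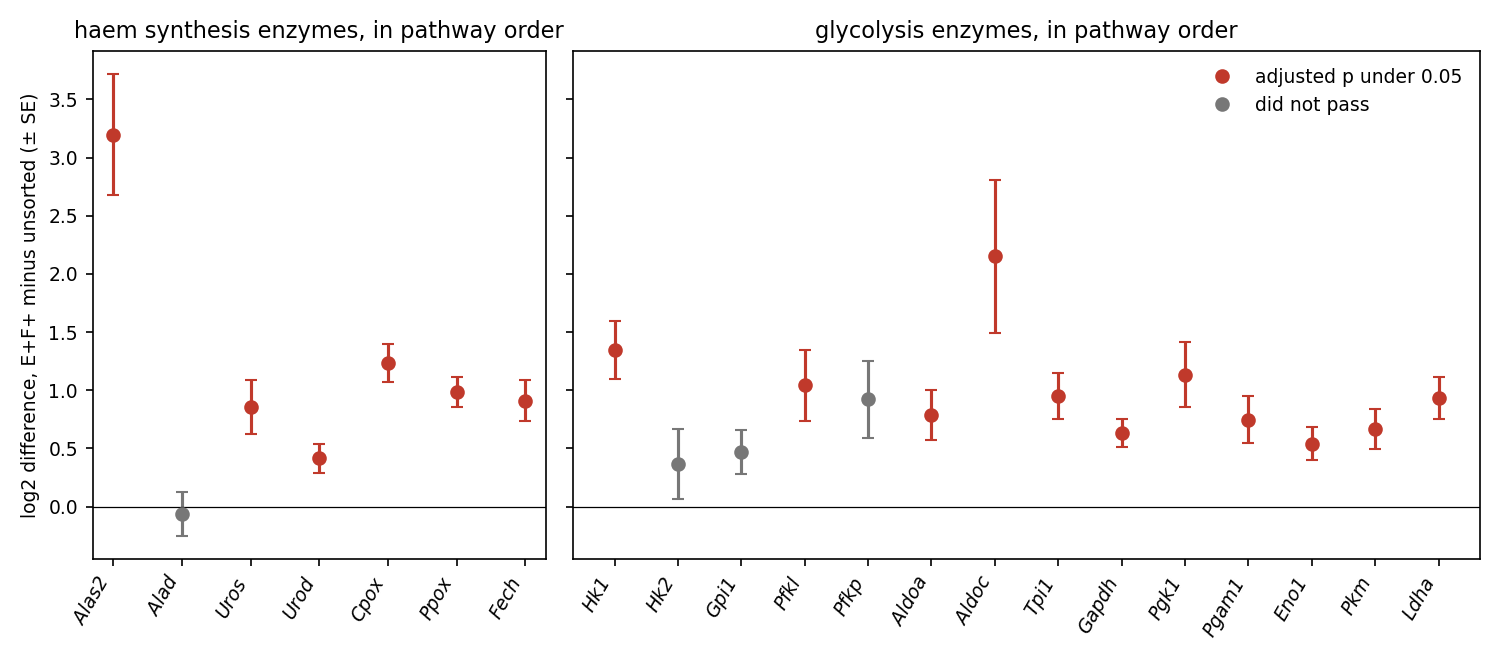
Log2 difference, E+F+ minus unsorted, with its SE for 7 haem synthesis enzymes (left) and 14 glycolysis enzymes (right) in pathway order, red where the adjusted p was under 0.05. In haem synthesis 6 of 7 passed, with Alas2 far above the rest and Alad near 0; in glycolysis 11 of 14 passed and all 14 lie above 0.

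Stress genes were called in both directions, with 5 of 20 (25%) higher and 8 (40%) lower, against 9.89% and 10.4% of all genes. These counts were 4 and 2 without the Set term, and 2 and 3 without the E+F+ or the unsorted library of Set 1. The 5 higher genes were Ddit3, Trib3, Atf4, Sesn2 and Chac1, all known members of the integrated stress response to amino acid shortage or unfolded protein, a grouping made after their values were seen. Atf3, a gene of the same list that is also known from this response, was not called. Trib3, a pseudokinase, was at 59.1, 38.5 and 63.1 TPM in E+F+ and 9.10, 3.91 and 10.6 TPM in unsorted cells (2.89 ± 0.47, adjusted p = 0.0017). Ddit3 (CHOP), a transcription factor, was at 85.2, 60.5 and 80.9 TPM against 20.8, 18.9 and 41.0 TPM (1.64 ± 0.25, adjusted p = 0.001). Both were apart in all libraries and held under all alternatives, whereas 2 of the 5 were called without the E+F+ library of Set 1 or the unsorted library of Set 1 or Set 2. The lower genes included the immediate early gene Nr4a1 (−1.42 ± 0.25, adjusted p = 0.0023) and the heat shock gene Hspa1b (−1.06 ± 0.16, adjusted p = 0.0012). Of 16 p53 target and apoptosis genes 6 (37.5%) were lower and 1 (6.2%) higher, against 10.4% and 9.89% of all genes. Without the Set term 2 were lower and 0 higher, and the counts were 3 and 0 without the unsorted library of Set 1.

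Of 24 proliferation genes 5 (20.8%, against 9.89% of all genes) were higher and 1, Ccnd1, was lower (4 and 1 without the Set term), with a median log2 difference of 0.16. The D cyclins differed in opposite directions: Ccnd3 was higher, at 318, 316 and 380.0 TPM against 226, 228 and 262 TPM (0.60 ± 0.11, adjusted p = 0.0028), where Ccnd1 was lower. Cdkn1b (p27), an inhibitor of the G1 kinases that was counted among the 5, was higher, at 59.7, 53.04 and 53.5 TPM against 34.2, 29.6 and 33.4 TPM (0.87 ± 0.15, adjusted p = 0.0021). Mki67, also among the 5, was higher by 0.41 (adjusted p = 0.031), a call kept under 6 of 18 alternatives. It was lost without the Set term (0.054) and without the E+F+ or unsorted library of Set 1 or Set 2. Top2a did not pass (adjusted p = 0.72). Of 20 cholesterol synthesis genes 1 (5%), Dhcr7, was higher (0 without the Set term and without any 1 of 4 libraries).

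**Figure D5:**
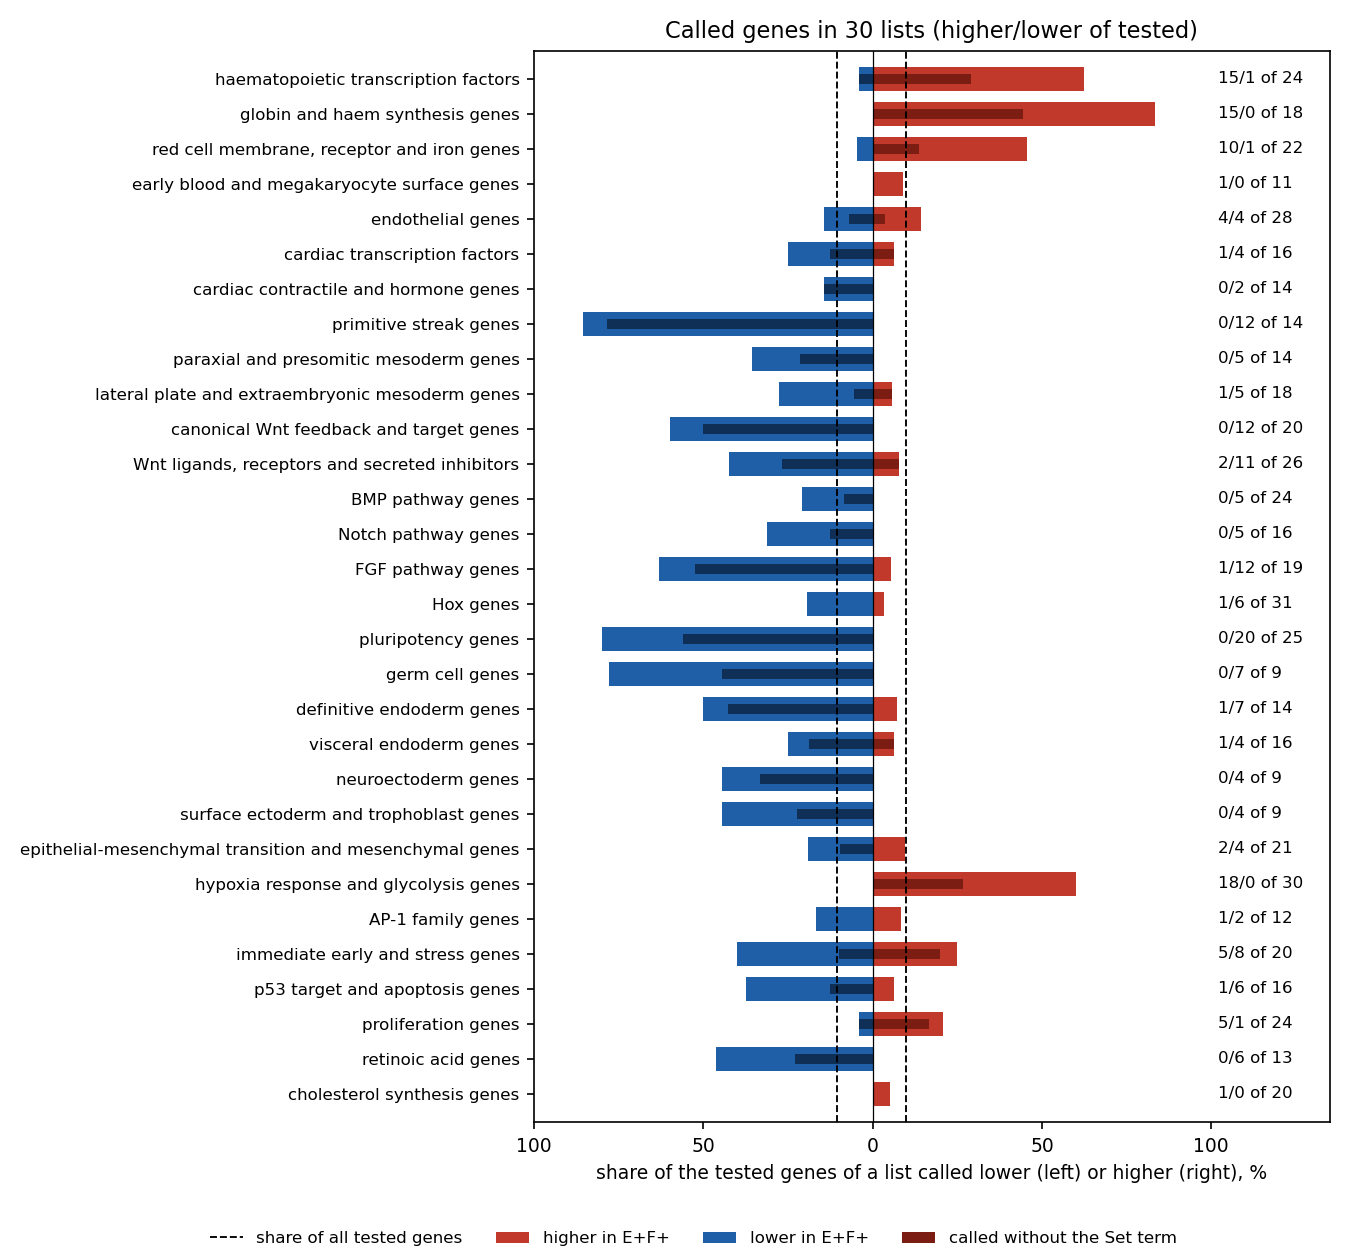
Share of the tested genes of each of 30 lists that were called higher (red, right) or lower (blue, left) in E+F+ cells, with counts at the right, dark inner bars for calls made without the Set term and dashed lines at the shares of all tested genes (9.89% higher and 10.4% lower). The blood transcription factor, globin and haem, and red cell lists extend to the right, as does the hypoxia and glycolysis list. The early blood and megakaryocyte surface list (9.1% higher) does not pass the dashed line. The streak, Wnt, FGF, pluripotency and germ cell lists extend to the left.

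Some of the largest differences lay outside these lists. Slc32a1, the vesicular transporter of GABA and glycine known from inhibitory neurons, was at 43.7, 45.3 and 96.1 TPM in E+F+ and 3.52, 8.15 and 18.5 TPM in unsorted cells (2.89 ± 0.43, adjusted p = 0.00095). Among the lower genes, Tdh, the threonine dehydrogenase on which mouse ES cells depend, was at 0.14, 0.04 and 0.04 TPM against 19.1, 3.04 and 20.2 TPM (−7.48 ± 0.84, adjusted p = 0.00035). Alox15, a lipoxygenase, was at 0.07, 0.32 and 0.06 TPM against 33.02, 15.7 and 18.98 TPM (−7.03 ± 0.77, adjusted p = 0.00035), and Sfn, the epithelial protein 14-3-3σ, at 0.36, 0.44 and 0.70 TPM against 47.02, 15.98 and 60.6 TPM (−6.46 ± 0.80, adjusted p = 0.00041). None of these 4 genes overlapped between the groups, and all 4 calls held under all alternatives.

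The same E+F+ libraries, set against E+F− cells in DMSO, gave 4967 called genes (35.9%), 2386 (17.3%) higher and 2581 (18.7%) lower. Both comparisons share the E+F+ libraries, so values are given side by side. Gata1 was at 0.63, 0.69 and 2.26 TPM and Klf1 at 0.50, 0.14 and 1.8 TPM in E+F− cells, below the unsorted level in every Set. T was at 218, 237 and 494 TPM and Mesp1 at 202, 219.7 and 206 TPM in E+F− cells, above the unsorted level in every Set. For these 4 genes, the unsorted cells thus lay between the 2 sorted fractions. That was not so for Pou5f1, at 71.1, 186 and 317 TPM in E+F− and 270.5, 80.7 and 204 TPM in unsorted cells, whose order changed between Sets.

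To determine whether the difference between E+F+ and unsorted cells depended on Wnt inhibition, the same contrast was tested in 10 µM IWR-1. There 2699 genes (19.5%) were called, 1176 (8.51%) higher and 1523 (11%) lower. The 2 treatments shared 816 higher genes (59.7% of those in DMSO and 69.4% of those in IWR-1) and 995 lower genes (69.1% and 65.3%), and no gene was called in opposite directions. The difference between the 2 contrasts was called by edgeR for 0 genes, and by DESeq2 also for 0. By edgeR 331 of 13826 genes had an unadjusted p under 0.05, fewer than that threshold would give with no difference at all. Gata1 differed by 3.01 ± 0.35 in DMSO and 2.94 ± 0.35 in IWR-1. Jdp2 differed by 1.47 ± 0.39 in DMSO and 0.92 ± 0.39 (adjusted p = 0.11) in IWR-1, and the difference between these values was 0.55 ± 0.54 (adjusted p = 1.0). Epas1 differed by 1.30 ± 0.33 in DMSO and 1.99 ± 0.34 in IWR-1, a difference of −0.69 ± 0.47. With 3 libraries a group, a difference between the treatments was thus not detected for any gene, which does not show that the contrasts were alike.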

How the data were processed

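RNA of 18 libraries (6 groups of 3) was sequenced as single reads after TruSeq library preparation, which does not mark strand. Per the labels and the study's methods, the authors processed reads with CASAVA 1.8.2 and aligned them with Bowtie 0.12.9 to RefSeq transcripts, and the deposited table holds RSEM 1.2.3 expected counts per gene. The authors also deposited TPM values, scaled per library by transcript length and depth, which give the levels in the text. RSEM shares out reads of similar genes.

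Expected counts were rounded and tested with edgeR 4.0.16 (R 4.3.3): filtering by expression, TMM normalisation, a quasi-likelihood test over all 18 libraries with group and Set, and Benjamini-Hochberg adjustment over 13826 genes, with calls at an adjusted p under 0.05. An SE is the log2 difference divided by the square root of its F statistic. The study's methods used no pairing. After removal of group means, same-numbered E+F+ and unsorted libraries correlated at 0.1, 0.285 and 0.367 across genes (Sets 1, 2 and 3), and other pairs at −0.362 to 0.129. P-values rest on the spread between libraries. Alternatives were DESeq2 1.42.0, upper-quartile scaling, no filter, no Set term, the 6 libraries alone, each library or Set left out, and limma 3.58.1 on log2(TPM + 1) or log2(TPM + 0.1).

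The comparison and the 30 gene lists were chosen with earlier results of these data known. Some genes stand in several lists and were counted in each, so the list counts are not independent of each other. Genes named were those the study names, the 10 largest differences in each direction among called genes with at least 10 CPM and no overlap, the first 2 genes of each list, and up to 4 called genes of each list with the smallest p; the results of some genes are not reported here. Alad, Uros, Urod and Fech were added as members of their pathway. Atf3, Atf4, Bcl11a, Bmp4, Chac1, Etv2, Fgfr3, Flt1, Hbb-y, Klf4, Lmo2, Runx1 and Sesn2 were chosen after their values were seen. Promoter sequences are from RefSeq (GRCm38.p6).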

Additional observations from a re-analysis of the deposited data

How the results depend on the processing

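The counts of genes called higher and lower were the results most dependent on processing. Without the Set term (no replicate block) they were 650 and 809. The 6 libraries alone gave 794 higher genes with the block, and 479 higher and 825 lower without it. With limma, 735 (log2(TPM + 1)), 769 (log2(TPM + 0.1)) and 666 (no filter) genes were higher. With 1 library left out the counts ran from 541 to 1125 higher and from 570 to 1253 lower, both lowest without the unsorted library of Set 1. Without Set 1 they were 528 and 474, without Set 2 143 and 275, and without Set 3 1225 and 1347. The cause was not tested. Of 127 named genes that were called, 87 were called without the block and 53 under all 18 alternatives, and none changed direction.

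The genes that changed sign were not called. Hand2 was at −0.0503 without the block, at −0.0787 and −0.0613 in the 6 libraries alone with and without it, and at −0.152, −0.162 and −0.152 with limma (log2(TPM + 1), log2(TPM + 0.1), no filter). In these limma fits Tfrc was at −0.0806, −0.0816 and −0.0806 and Top2a at −0.0534, −0.0536 and −0.0534. With upper-quartile scaling Tfrc was at −0.0334 and Top2a at −0.000646. With 1 library left out, the log2 difference ran from −0.656 to 0.385 for Hand2, −0.117 to 0.162 for Tfrc, −0.00974 to 0.0695 for Top2a, −0.0104 to 0.279 for Hmgcs1, −0.0235 to 0.677 for Eng, −0.365 to 0.561 for Hey1 and −0.436 to 0.150 for Fos. Without Set 1 it was −0.108 for Tfrc, −0.0263 for Top2a, 0.829 for Hey1 and 0.150 for Hoxb1, and without Set 3 −0.374 for Hand2, −0.0132 for Tfrc and 0.0608 for Fos.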
